A study of Mus musculus with 36 samples.

Results

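The loss of AGO2 was examined in naive CD4 T cells through the microRNAs (miRNAs) that these cells held. The libraries were taken by their titles, which gave 4 AGO2 knockout libraries (D, E, F and G) and 3 Cre control libraries (A, B and C), so 7 of the 36 libraries of the series. The knockout genotype was CD4Cre;R26LSLeYFP;AGO2f/f and the control genotype was CD4Cre;R26LSLeYFP, both on C57BL/6J. Both groups therefore carried the CD4-Cre driver and the R26 LSL eYFP reporter, and they differed by the floxed AGO2 alleles. The cells were CD4+ TCRb+ T cells sorted from the spleen by flow cytometry, without culture. CD4-Cre removes a floxed gene in T cells during their development in the thymus, so the deletion precedes the naive stage. The labels give neither the animals behind the letters nor their age, so the p-values measure the spread between libraries, which may be technical. For the edgeR tests of the AGO2 effect, that spread was estimated over 14 libraries, these 7 and the Th2 cell libraries of the same genotypes. A miRNA library does not measure Ago2 mRNA, and the genotype could not be checked in these data.

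The wider study measured miRNAs with AGO2 lost, or with AGO1, AGO3 and AGO4 lost together, in naive CD4 T cells and after Th2 culture. Th2 cells of the same AGO2 and Cre genotypes, after 5 days of culture, and naive AGO134-/- cells (AGO1/3/4 knockout) with their naive WT littermate controls are used here for comparison only. All are on C57BL/6J.

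Argonaute proteins hold mature miRNAs and carry them to target mRNAs, and a miRNA that is not held by an Argonaute is usually degraded. A miRNA recognises targets mainly through its seed, bases 2 to 8 from the 5′ end. AGO2 is the mammalian Argonaute known for cutting its target RNA, and it makes miR-451a from a hairpin that Dicer does not process. In T cells, miRNAs such as miR-150, miR-181a and miR-142 are abundant and change with maturation and activation.

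The miRNAs on which the results turn are shown first, with the seed in capitals and all other bases in lower case. The sequences are those of RefSeq on GRCm38.p6, in which 28 of 32 miRNAs looked up were found. miR-669a-5p, miR-669p-5p, miR-5099 and miR-150-5p are given by name. The first set holds the called miRNAs with a sequence, which are those whose level differed between AGO2 knockout and Cre libraries.
miR-3963: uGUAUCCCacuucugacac
miR-181a-5p: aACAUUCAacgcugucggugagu
miR-148b-3p: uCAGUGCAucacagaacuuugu
miR-3962: aGGUAGUAguuuguacauuu
miR-1843a-5p: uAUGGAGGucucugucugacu
miR-26b-5p: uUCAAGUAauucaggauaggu
let-7g-5p: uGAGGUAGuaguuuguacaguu
The second set holds relatives and other abundant miRNAs that are compared with them.
miR-148a-3p: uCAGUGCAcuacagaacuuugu
miR-26a-5p: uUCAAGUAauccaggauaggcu
let-7a-5p: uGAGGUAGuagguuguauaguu
miR-25-3p: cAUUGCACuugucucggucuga
miR-92a-3p: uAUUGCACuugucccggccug
miR-142a-3p: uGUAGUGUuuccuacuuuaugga
miR-146a-5p: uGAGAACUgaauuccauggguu
miR-150-3p: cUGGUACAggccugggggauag
miR-148b-3p shares its seed with miR-148a-3p, miR-26b-5p with miR-26a-5p, let-7g-5p with let-7a-5p, and miR-25-3p with miR-92a-3p. miR-3962 has a seed of its own, but 19 of its 20 bases match let-7g-5p when it is aligned 2 bases in, with a shared run of 17 bases. Reads of let-7g-5p could thus be counted as miR-3962, and the counts of both are uncertain. miR-669a-5p and miR-669p-5p had the same count in each of the 7 libraries, so they are 1 measurement with a pair of names.

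On GRCm38, miR-148b-3p lies at chr15:103285185-103285206 on the plus strand, in an intron of Copz1. miR-26b-5p lies at chr1:74394324-74394344 on the plus strand, in an intron of Ctdsp1. let-7g-5p lies at chr9:106178846-106178867 on the plus strand, in an intron of Wdr82. miR-1843a-5p lies at chr12:80391654-80391674 on the minus strand, in an intron of Dcaf5 and within an exon of the small RNA gene Scarna3b. miR-181a-5p has a pair of loci, at chr1:137966468-137966490 in an intron of Gm4258 and at chr2:38852741-38852763 in an intron on the opposite strand of Nr6a1. miR-3963 at chr3:151023839-151023857 on the minus strand and miR-3962 at chr1:194822035-194822054 on the plus strand lie in no annotated gene.

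The depth of the 7 libraries was low and unequal. The AGO2 knockout libraries D, E, F and G held 16461, 10691, 6419 and 10676 miRNA counts, against 8643, 596 and 2156 in Cre A, B and C. A miRNA with a count of 0 could hold up to 3 counts, which equals 182 to 467 counts per 1000000 miRNA counts (CPM) in AGO2 knockout libraries and 347 to 5034 CPM in Cre libraries. Of 1966 mature miRNAs, 148 to 228 had a count in an AGO2 knockout library and 73 to 183 in a Cre library. The Cre libraries also differed among themselves: the chi-square statistic per degree of freedom was 26.6 between A and C and 2.88 between B and C, against 1.88 to 13.8 between AGO2 knockout libraries. Across 54 miRNAs, the log level of Cre A had a Pearson r of 0.82 to 0.90 with the AGO2 knockout libraries, and that of Cre C had an r of 0.60 to 0.71, and knockout D and G had an r of 0.97 with each other. These are a description only, since all libraries share the same miRNAs and differ in depth.

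**Figure D1:**
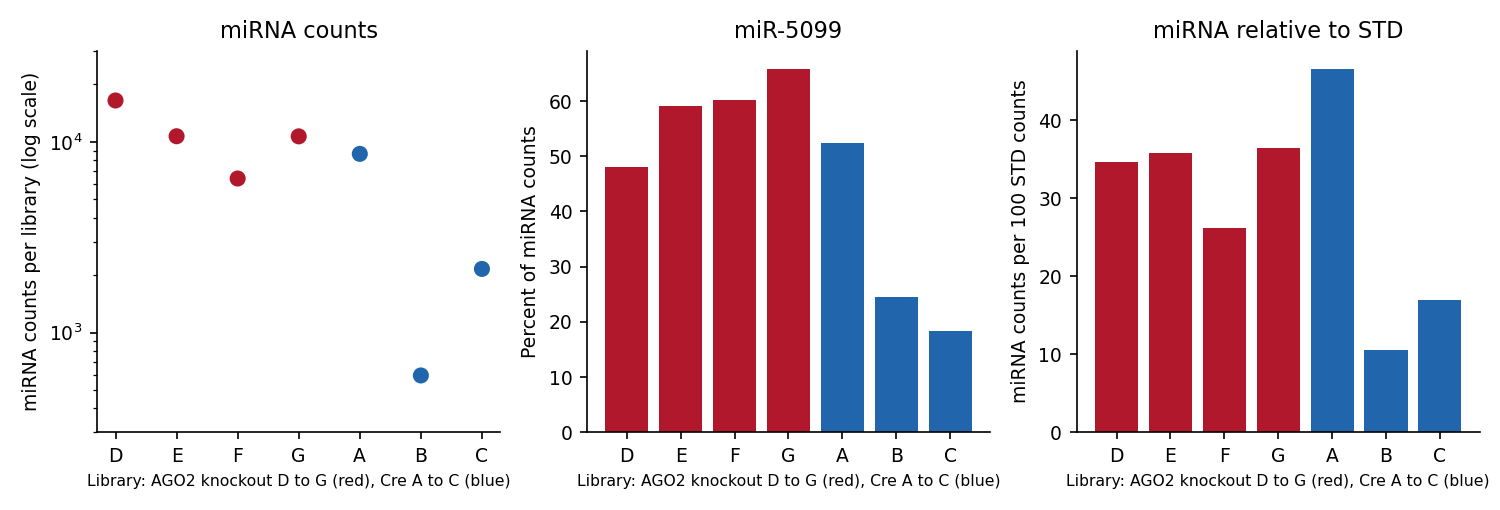
Depth and composition of each naive library, with AGO2 knockout libraries D to G in red and Cre libraries A to C in blue. The panels show miRNA counts on a log axis, the percent of miRNA counts named miR-5099, and miRNA counts per 100 counts of the STD entries; Cre B and C are the shallowest libraries and Cre A lies among or near the AGO2 knockout libraries in the first 2 panels.

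The largest entry was miR-5099. It took 48.0%, 59.2%, 60.2% and 65.8% of the miRNA counts in AGO2 knockout libraries D, E, F and G, against 52.4%, 24.5% and 18.4% in Cre libraries A, B and C. Cre A lay within the knockout range and the other Cre libraries lay below it. The mean share was 58.3% ± 7.45 in AGO2 knockout libraries (SD, n = 4) and 31.8% ± 18.1 in Cre libraries (SD, n = 3), a difference of 26.5 percentage points (two-sided exact permutation test, p = 0.114). With 4 libraries against 3 the smallest p this test can give is 0.0571. In the 4 deeper naive WT libraries of the other experiment, miR-5099 took 1.38% ± 0.135 of miRNA counts (SD).

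The deposited files also held 9 entries named STD, whose nature the labels do not state. miRNA counts per 100 STD counts were 34.7, 35.9, 26.2 and 36.5 in AGO2 knockout libraries and 46.6, 10.5 and 16.9 in Cre libraries. The groups overlapped, with Cre A above all other libraries and Cre B and C below them. The difference in mean log2 ratio, AGO2 knockout minus Cre, was 0.71 (two-sided exact permutation test, p = 0.286). Without miR-5099 the difference was 0.02 (two-sided exact permutation test, p = 0.971). A loss of total miRNA was not detectable in naive AGO2 knockout cells at this depth. In Th2 cells the difference in the same log2 ratio was -1.46 (two-sided exact permutation test, p = 0.0571). In bulk libraries, fewer cells and less miRNA per cell cannot be told apart.

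The filter on low counts was applied over the 14 naive and Th2 libraries of the AGO2 experiment. It left 98 miRNAs, which held 97.9% of the naive counts, and 78 of them had at least 20 naive counts. The shares of the 98 given below thus include miRNAs with few naive counts. With 10 counts required in 3 naive libraries instead, 46 were tested and 9 called. Among the 98, 9 differed between AGO2 knockout and Cre libraries, or 9.18% of those tested (edgeR quasi-likelihood test, adjusted p under 0.05). miR-669a-5p and miR-669p-5p, with the same counts, are counted under both names here and below. miR-3963 and miR-181a-5p were higher in AGO2 knockout cells, 2.04% of those tested. miR-148b-3p, miR-3962, miR-669a-5p with miR-669p-5p, miR-1843a-5p, miR-26b-5p and let-7g-5p were lower, 7.14% of those tested. After TMM scaling, the AGO2 knockout and Cre libraries did not overlap for any of these 9. In plain shares of miRNA counts, miR-181a-5p overlapped, with knockout F at 0.436% and Cre B at 0.503%. With TMM scaling, non-overlapping groups were found for 14.3% of the 98 tested, 6 (6.12%) with all knockout libraries above and 8 (8.16%) with all below. The 5 of these that missed the threshold were miR-146a-5p, miR-181a-2-3p, miR-22-3p and miR-15b-5p above and miR-532-5p below. miR-146a-5p, miR-181a-2-3p and miR-15b-5p had a count of 0 in Cre B, the shallowest library. The median log2 fold change over the 98 was 0.14, or 0.10 over the 93 with a count in both groups. Other scalings moved it to between -0.30 (library size alone) and 0.40 (DESeq2 size factors). Each change is therefore relative to the other miRNAs of the same libraries and depends on the scaling, with no absolute scale.

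miR-3963 had 180, 46, 12 and 78 counts in AGO2 knockout libraries D, E, F and G, against 8, 0 and 3 counts in Cre libraries A, B and C. In levels these were 12065, 5348, 2376 and 12859 CPM after TMM scaling in AGO2 knockout libraries and 1074, 0 and 1094 CPM in Cre libraries. Each AGO2 knockout library stood above each Cre library, although the count of 0 in Cre B allows up to 5034 CPM before scaling. The log2 fold change was 3.12 (SE 0.61, edgeR adjusted p = 0.0012).

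miR-181a-5p sets the sensitivity of the T cell receptor during thymic development. It had 275, 60, 28 and 79 counts in AGO2 knockout libraries and 33, 3 and 4 counts in Cre libraries. Its levels were 18433, 6975, 5544 and 13023 CPM in AGO2 knockout libraries and 4431, 3030 and 1458 CPM in Cre libraries. The lowest knockout library, F, was not far above the highest Cre library, A, and knockout D and G were the highest. The log2 fold change was 1.79 (SE 0.55, edgeR adjusted p = 0.0454).

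Other products of the miR-181 genes had few counts. miR-181a-2-3p, the passenger arm of the chromosome 2 hairpin, had 73, 22, 12 and 24 counts in AGO2 knockout libraries and 11, 0 and 5 in Cre libraries, with a log2 fold change of 1.34 (SE 0.49, edgeR adjusted p = 0.105). Its groups did not overlap after TMM scaling, although the count of 0 in Cre B allows up to 5034 CPM before scaling. It did not pass the test. miR-181b-5p had 4, 4, 3 and 1 counts in AGO2 knockout libraries and 0 in each Cre library. The pooled level of 271 CPM in AGO2 knockout libraries was at least 1.03-fold that of Cre libraries, whose limit of 3 counts over the group equals 263 CPM. A difference in miR-181b-5p was therefore not detectable at this depth.

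miR-148b-3p, of the miR-148 family, had 21, 16, 12 and 5 counts in AGO2 knockout libraries and 25, 14 and 34 counts in Cre libraries. The levels were 1408, 1860, 2376 and 824 CPM in AGO2 knockout libraries and 3357, 14138 and 12394 CPM in Cre libraries. Cre B and C were several times higher than Cre A, which itself lay above each knockout library. The log2 fold change was -2.48 (SE 0.48, edgeR adjusted p = 0.00116). Its seed relative miR-148a-3p had 8, 4, 4 and 1 counts in AGO2 knockout libraries and 6, 0 and 1 in Cre libraries. Its log2 fold change was -0.28 (SE 0.66, edgeR adjusted p = 0.868).

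miR-669a-5p and miR-669p-5p, from the rodent cluster in an intron of Sfmbt2, had 17, 11, 8 and 10 counts in AGO2 knockout libraries and 33, 5 and 16 counts in Cre libraries. The levels were 1139, 1279, 1584 and 1649 CPM in AGO2 knockout libraries and 4431, 5049 and 5833 CPM in Cre libraries. After TMM scaling both groups were tight, with the lowest Cre library well above the highest knockout library. In plain shares of miRNA counts the Cre libraries were spread more widely, at 0.382%, 0.839% and 0.742% in A, B and C. All 3 still lay above the highest knockout library, F, at 0.125%. Cre B rests on 5 counts, with an exact binomial interval of 0.273% to 1.95%, and the knockout libraries on 8 to 17 counts. The log2 fold change was -1.87 (SE 0.30, edgeR adjusted p = 0.00017).

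miR-3962, whose reads are hard to tell from let-7g-5p, had 3, 1, 1 and 1 counts in AGO2 knockout libraries and 8, 2 and 13 counts in Cre libraries. The log2 fold change was -3.72 (SE 0.77, edgeR adjusted p = 0.00171), on the fewest counts of any called miRNA. let-7g-5p itself, of the let-7 family that restrains growth and cytokine genes, had 196, 156, 96 and 79 counts in AGO2 knockout libraries and 214, 26 and 109 in Cre libraries. Its levels were 13137, 18136, 19007 and 13023 CPM in AGO2 knockout libraries and 28734, 26256 and 39735 CPM in Cre libraries. The groups did not overlap, and the log2 fold change was -1.01 (SE 0.31, edgeR adjusted p = 0.0454).

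miR-26b-5p, which like miR-26a-5p lies in an intron of a small phosphatase gene, had 49, 32, 16 and 16 counts in AGO2 knockout libraries and 36, 7 and 24 in Cre libraries. Its log2 fold change was -1.04 (SE 0.31, edgeR adjusted p = 0.0405). miR-1843a-5p had 12, 6, 3 and 4 counts in AGO2 knockout libraries and 9, 2 and 13 in Cre libraries. Its log2 fold change was -1.75 (SE 0.50, edgeR adjusted p = 0.0339). In CPM, Cre C was the highest library for both and Cre A the lowest of its group, above each knockout library.

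**Figure D2:**
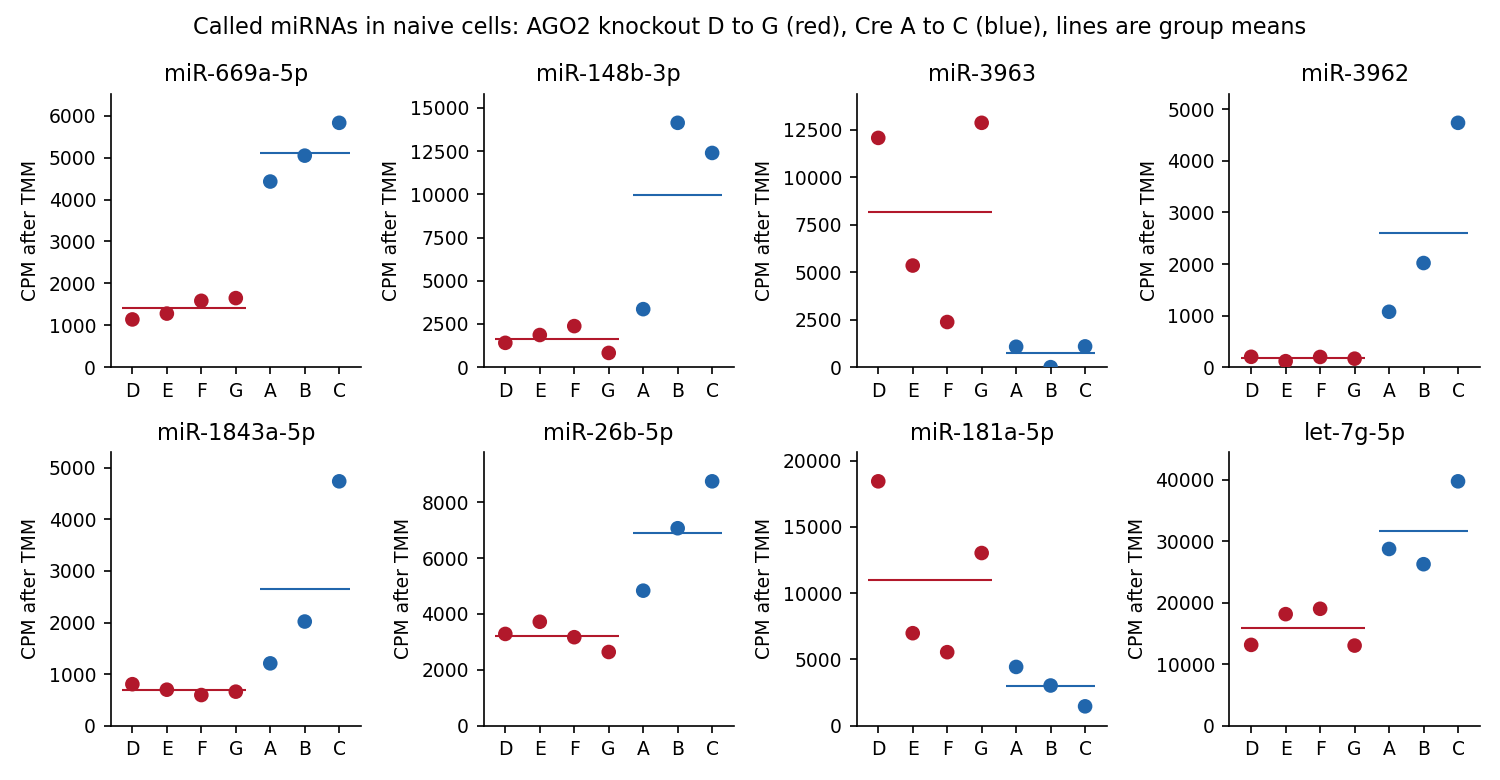
Level of each called miRNA in CPM after TMM scaling (linear axes from 0), with AGO2 knockout libraries D to G in red, Cre libraries A to C in blue and lines at the group means; miR-669p-5p, which had the same counts as miR-669a-5p, is not drawn. The groups do not overlap in any panel, and for miR-148b-3p, miR-3962, miR-1843a-5p and miR-26b-5p Cre A is the Cre library nearest to the knockout libraries.

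These calls differed in how far they rested on single libraries. miR-3963, miR-148b-3p and the miR-669a-5p pair stayed called in 17 of 18 alternative analyses each, which changed the scaling, the filter, the tool or the libraries. The exception was the fit without Cre B and C, where Cre A stood alone, was assumed to vary like the other groups, and 0 of 151 miRNAs were called by edgeR, 21 at an unadjusted p under 0.05. In that fit the log2 fold change was 3.49 for miR-3963 and -1.19 for miR-669a-5p, but -0.58 for miR-148b-3p. miR-3962 stayed called in 14 of 16 alternatives and also lost its call without Cre C, at -2.65. miR-181a-5p stayed called in 11 of 18, and leaving out knockout D, knockout G, Cre B or Cre C each ended its call, as did scaling by library size or by the STD entries. miR-26b-5p and let-7g-5p stayed called in 6 of 18 each and miR-1843a-5p in 4 of 16. With the naive libraries fitted alone, miR-26b-5p and let-7g-5p each missed the threshold (edgeR adjusted p = 0.0748 for each). The direction of the 9 miRNAs was the same in each alternative that tested them.

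The number of calls also moved with single libraries. It was 5 without knockout D, 5 without knockout G, 5 without Cre B and 4 without Cre C, against 18 without Cre A, of which 9 were higher and 9 lower. Without Cre C, miR-1843a-5p had a log2 fold change of -0.76 and miR-26b-5p one of -0.63, neither called. With library sizes alone as the scaling, 14 were called, 1 higher and 13 lower.

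**Figure D3:**
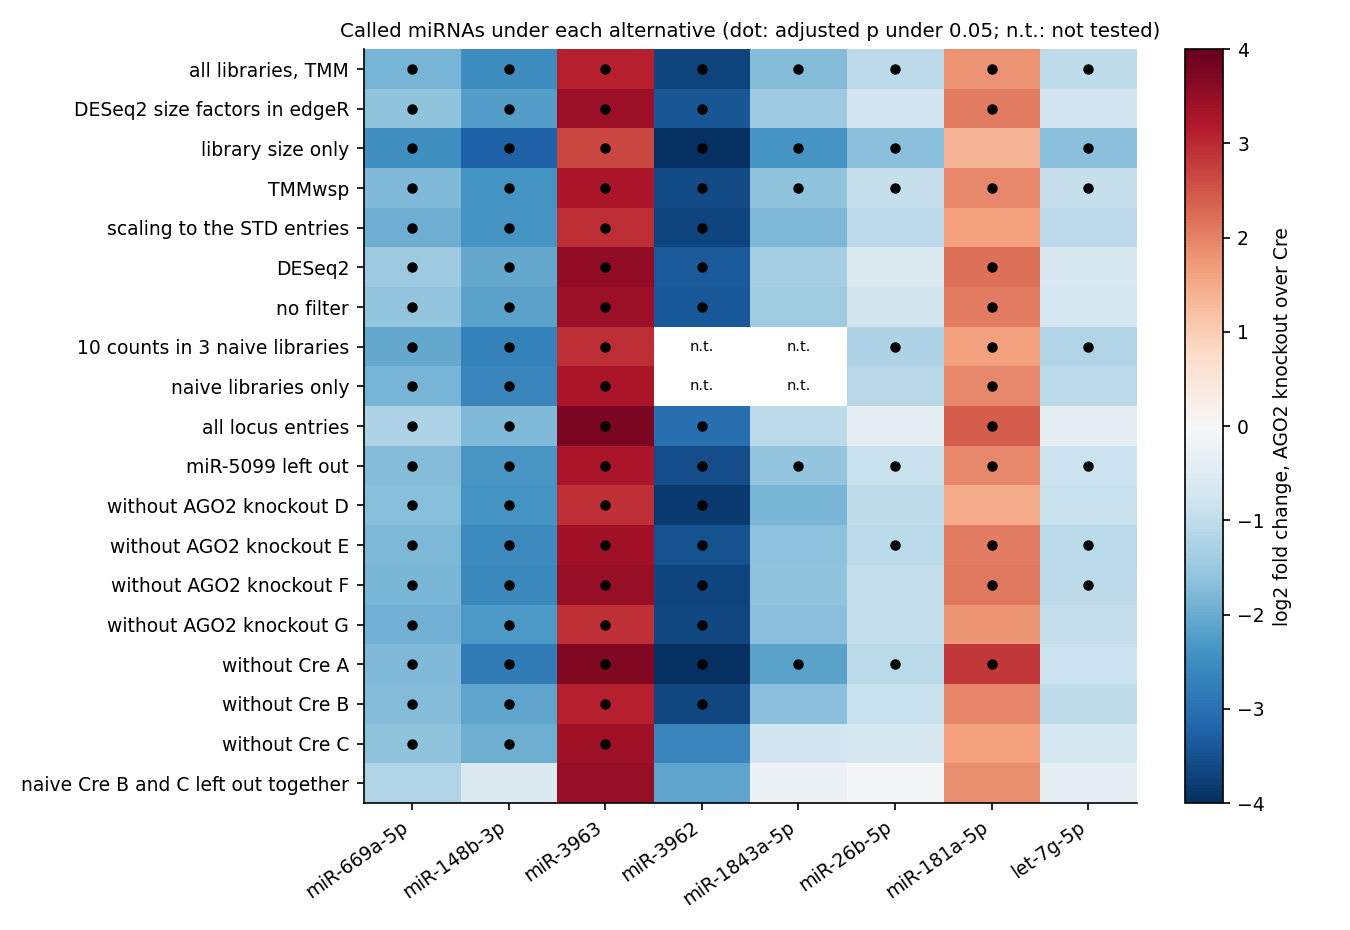
Log2 fold change of each called miRNA (AGO2 knockout over Cre, naive cells, colour scale) under each alternative, with a dot where the edgeR or DESeq2 adjusted p was under 0.05. miR-669a-5p, miR-148b-3p and miR-3963 keep their dot in each row but the last, in which Cre B and C are left out.

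The naive WT libraries of the other experiment, which are deeper and are labelled WT with no Cre, were set beside both groups after these values had been seen. Shares were taken of miRNA counts without miR-5099. miR-148b-3p took 0.305% ± 0.144 in AGO2 knockout libraries, 1.88% ± 1.25 in Cre libraries and 0.408% ± 0.0552 in WT libraries (SD, n = 4, 3 and 4). miR-3963 took 1.44% ± 0.820 in AGO2 knockout libraries, 0.122% ± 0.106 in Cre libraries and 2.37% ± 0.0957 in WT libraries. miR-669a-5p took 0.259% ± 0.0476 in AGO2 knockout libraries, 0.941% ± 0.157 in Cre libraries and 0.337% ± 0.0219 in WT libraries.

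For all 9 called miRNAs the WT mean was nearer to the AGO2 knockout mean than to the Cre mean on a log scale. The same was true of 62 of 97 tested miRNAs, or 63.9%. Both numbers include miR-669a-5p and miR-669p-5p, which had the same counts in each AGO2 knockout and Cre library. The 9 were chosen by the same knockout and Cre values, and the libraries come from separate experiments, so this is a description with no test. The parts of the Cre driver, of library depth and of AGO2 in the 9 differences were not tested.

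Among the most abundant miRNAs, miR-26a-5p led after miR-5099. It had 1750, 842, 525 and 824 counts in AGO2 knockout libraries and 707, 106 and 536 in Cre libraries. The groups overlapped, and its log2 fold change was -0.22 (SE 0.34, edgeR adjusted p = 0.759). let-7a-5p averaged 38923 CPM ± 3578 in AGO2 knockout libraries (SD, n = 4) and 35933 CPM ± 19470 in Cre libraries (SD, n = 3), with a log2 fold change of 0.08 (SE 0.36, edgeR adjusted p = 0.897). miR-25-3p, let-7f-5p, let-7i-5p, let-7d-5p and miR-191-5p had log2 fold changes between -0.27 and 0.42, none called. let-7c-5p and miR-92a-3p had values of -0.89 and -0.84, with edgeR adjusted p = 0.138 and 0.157.

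The core T cell list held 12 miRNAs, of which 11 were tested, with 1 higher (miR-181a-5p) and 1 lower (let-7g-5p), where 2.04% of all 98 tested were higher and 7.14% lower. Its median log2 fold change was 0.81, beside 0.14 for all 98 tested. The list and the others below were chosen with earlier results of these data known. No test was run on a list as a whole.

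miR-142a-3p, a miRNA of all blood cells, had 482, 76, 39 and 330 counts in AGO2 knockout libraries and 115, 1 and 1 in Cre libraries. Cre A lay within the knockout range, and knockout D and G were the highest. Its log2 fold change was 1.88 (SE 0.81, edgeR adjusted p = 0.152). The 5p arm of the same hairpin had 234, 48, 24 and 111 counts in AGO2 knockout libraries and 44, 7 and 18 in Cre libraries, with a log2 fold change of 0.81 (SE 0.46, edgeR adjusted p = 0.297).

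miR-150-5p, a marker of mature resting lymphocytes, had 498, 94, 52 and 153 counts in AGO2 knockout libraries and 97, 4 and 20 in Cre libraries. The groups overlapped through Cre A, and the log2 fold change was 1.17 (SE 0.44, edgeR adjusted p = 0.110). miR-146a-5p, which damps NF-κB signalling, had 86, 14, 9 and 19 counts in AGO2 knockout libraries and 8, 0 and 0 in Cre libraries. Its groups did not overlap, although the counts of 0 in Cre B and C allow up to 5034 and 1391 CPM before scaling. Its log2 fold change of 2.30 missed the threshold (SE 0.75, edgeR adjusted p = 0.0558). miR-155-5p and miR-21a-5p, both induced on activation, had log2 fold changes of 0.20 and 0.35, neither called.

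**Figure D4:**
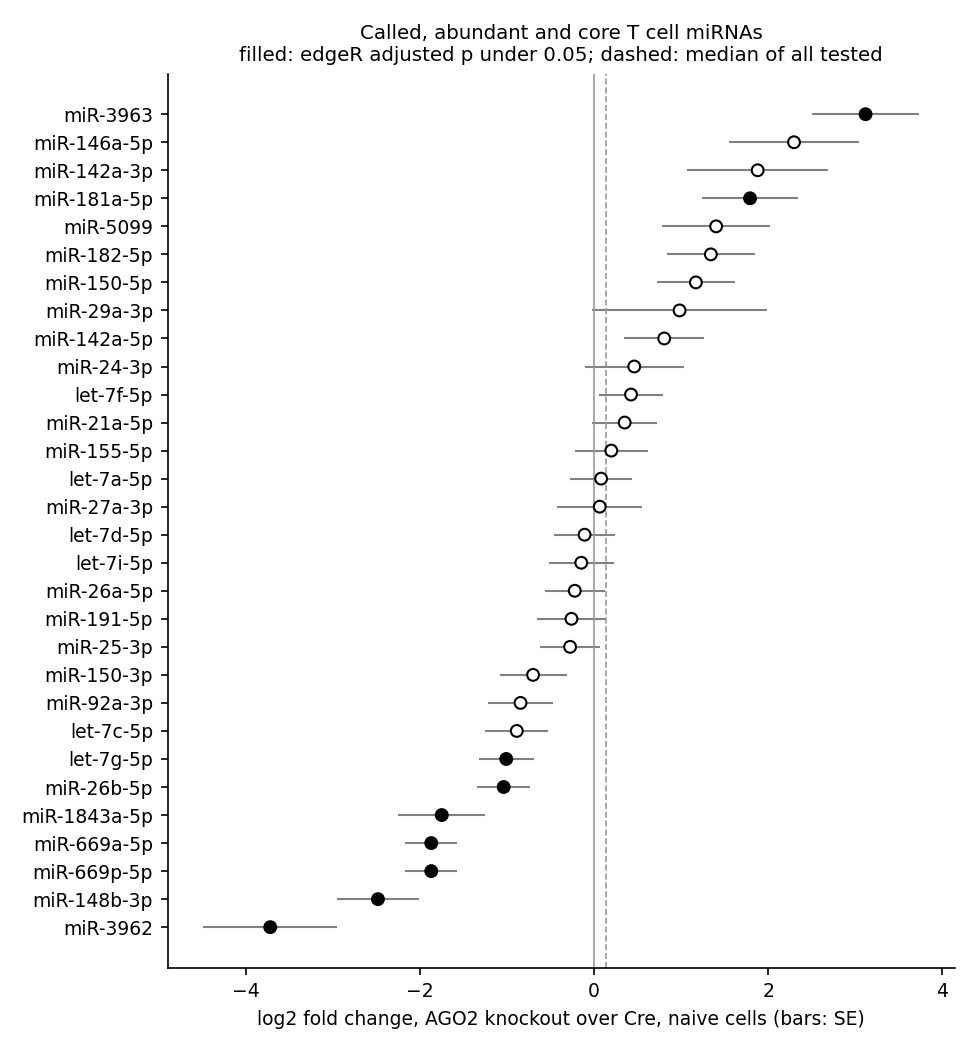
Log2 fold change of called, abundant and core T cell miRNAs in naive cells (AGO2 knockout over Cre, bars are SE). Filled points passed the edgeR test, open points did not, and the dashed line marks the median of all tested, 0.14; the abundant let-7a-5p and miR-26a-5p lie near it.

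By family, the calls are read beside 9.18% called among all 98 tested, 2.04% higher and 7.14% lower. let-7 had 9 of 10 members tested, with 0 higher, 1 lower and a median log2 fold change of -0.15, which was 0.10 with DESeq2 size factors. The miR-26 family had both members tested, 1 lower, with a median of -0.63. The miR-15/16 family had 2 of 6 tested, miR-29 had 1 of 3, miR-30 had 3 of 5, the miR-17-92 clusters 5 of 13 and the miR-23-27-24 clusters 6 of 11, with no call among them and medians between 0.10 and 0.98. With library size alone as the scaling, which moved the median of all tested to -0.30, the medians of let-7, miR-30 and the miR-17-92 clusters were -0.69, -0.34 and -0.41. miR-19b-3p of the miR-17-92 cluster had 26, 2, 0 and 3 counts in AGO2 knockout libraries and 1, 0 and 0 in Cre libraries, so most of its counts came from knockout D.

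miRNAs known to be induced by T cell activation had 9 of 20 members tested, 0 called and a median of 0.37. miRNAs known to be lost on activation had 12 of 19 tested, with 1 higher, 2 lower and a median of 0.19, beside 2.04% higher and 7.14% lower among all 98 tested. Without miR-5099 in the total, the list lost on activation made up 44.6% to 45.9% of counts in AGO2 knockout libraries and 43.1% to 47.3% in Cre libraries. The core T cell list made up 13.7% to 23.2% in AGO2 knockout libraries and 10.5% to 15.05% in Cre libraries, with the ranges overlapping.

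miRNAs tied to AGO2 slicing could not be read in these cells. miR-451a had 0 counts in all 7 libraries, and miR-486a-5p and miR-486b-5p had 1 count each, in knockout D. Of 8 Drosha-independent miRNAs, 2 were tested and neither was called: miR-320-3p had a log2 fold change of -1.28 (SE 0.54, edgeR adjusted p = 0.147) and miR-484 one of -0.90. Markers of other cells were scarce. The 3 myeloid markers, miR-223-3p among them, had 0 counts, the red cell and platelet list 2 counts, the endothelial and stromal list 20 and the list for epithelium, liver and muscle 34, over all 7 libraries. The summed level of the endothelial and stromal list ran from 0.00607% to 0.0655% of counts in AGO2 knockout libraries and from 0.0464% to 0.168% in Cre libraries. These percents rest on 1, 7, 1 and 4 counts in knockout D, E, F and G and on 5, 1 and 1 in Cre A, B and C. The list for epithelium, liver and muscle took up to 0.103% in AGO2 knockout libraries and up to 0.139% in Cre libraries. Of the T cell markers, miR-181a-5p, miR-150-5p and both arms of miR-142a were detected in all 7 libraries. The 3p arm of miR-142a, found in all blood cells, had only 1 count each in Cre B and C. The marker miR-146a-5p had 0 counts in Cre B and C, and so was not detected in all libraries.

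The balance of hairpin arms was compared because AGO2 can cut passenger strands. Over 66 hairpins, the log2 ratio of the less to the more abundant arm (pseudocount 0.5) had a median per library of -3.76 ± 0.53 in AGO2 knockout libraries (SD, n = 4) and -2.54 ± 1.07 in Cre libraries (SD, n = 3). The difference of -1.22 did not pass a two-sided exact permutation test (p = 0.229). The less abundant arm was chosen by counts summed over the same 7 libraries, most of which came from knockout libraries. The pseudocount also moves the ratio towards 0 where counts are few. Both can lower the knockout medians relative to the Cre medians, and their part was not tested. The 2 shallowest libraries, Cre B and C, had the highest medians, at -1.58 and -2.32, and the part of depth in this was not tested. Of 6 hairpins with enough counts in both arms, none passed the test (two-sided exact permutation tests, lowest p = 0.114, adjusted over the 6, 0.686).

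miR-150 had the lowest p of these 6. The 3p arm took 19.8%, 26.6%, 45.3% and 25.4% of the reads of both arms in AGO2 knockout libraries, against 35.3%, 63.6% and 74.0% in Cre libraries. The groups overlapped, with knockout F above Cre A. The exact 95% binomial interval ran from 62.8% to 83.4% in Cre C but from 30.8% to 89.1% in Cre B, where it rests on 11 counts.

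The AGO2 effect in naive cells was next set against the effect in Th2 cells, whose libraries are separate and deeper, at 11218 to 40720 miRNA counts in AGO2 knockout and 39794 to 58357 in Cre libraries. The difference of the effects passed the test for 12 of the 98 miRNAs, or 12.2%, with 3 more positive (3.06%) and 9 more negative (9.18%) in naive cells (edgeR interaction, adjusted p under 0.05). In Th2 cells alone 44 of 98 were called, or 44.9%.

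miR-150 gave the clearest of these differences. miR-150-3p had 123, 34, 43 and 52 counts in naive AGO2 knockout libraries and 53, 7 and 57 in naive Cre libraries, with a log2 fold change of -0.70 that did not pass the test. In Th2 cells it had 219, 82, 383 and 416 counts in AGO2 knockout libraries and 24, 24 and 12 in Cre libraries, with a log2 fold change of 4.88. The difference was -5.58 (SE 0.57, edgeR adjusted p = 2.6e-07) and was called in all 10 alternatives tried for it. miR-150-5p differed by -2.26 (SE 0.61, edgeR adjusted p = 0.0163), with effects of 1.17 in naive and 3.43 in Th2 cells.

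miR-3962 differed by -4.21 (SE 0.93, edgeR adjusted p = 0.00887) and stayed called in 9 of 10 alternatives. miR-669a-5p, with a log2 fold change of -0.39 in Th2 cells, differed by -1.48 and stayed called in 6 of 10. miR-26b-5p, which was lower in naive AGO2 knockout cells, was higher in Th2 AGO2 knockout cells by 0.72 (SE 0.27, edgeR adjusted p = 0.0333), and the difference was -1.76 (SE 0.41, edgeR adjusted p = 0.0105). miR-92a-3p, miR-1198-5p and miR-30e-3p had values of -0.84, -0.80 and -0.33 in naive cells, none called, and differed from Th2 by -1.98, -2.25 and -1.72.

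The 3 differences in the other direction were of miRNAs that fell in Th2 AGO2 knockout cells and had few naive counts. In the Th2 Cre libraries together, miR-700-3p, miR-6236 and miR-351-5p had 326, 1751 and 203 counts, and the filter took in those libraries. miR-700-3p had 5, 4, 2 and 0 counts in naive AGO2 knockout libraries and 1, 0 and 0 in naive Cre libraries, and fell by 2.26 on the log2 scale in Th2 cells. miR-6236 had 26, 7, 6 and 12 counts in naive AGO2 knockout libraries and 5, 0 and 3 in naive Cre libraries, and fell by 1.74 in Th2 cells. miR-351-5p had 10 counts in naive AGO2 knockout libraries together and 0 in naive Cre libraries, and no fold is given. The set of 12 rested on Cre C in part: without it 2 differences were called, of which 1 was among the 12, miR-150-3p.

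**Figure D5:**
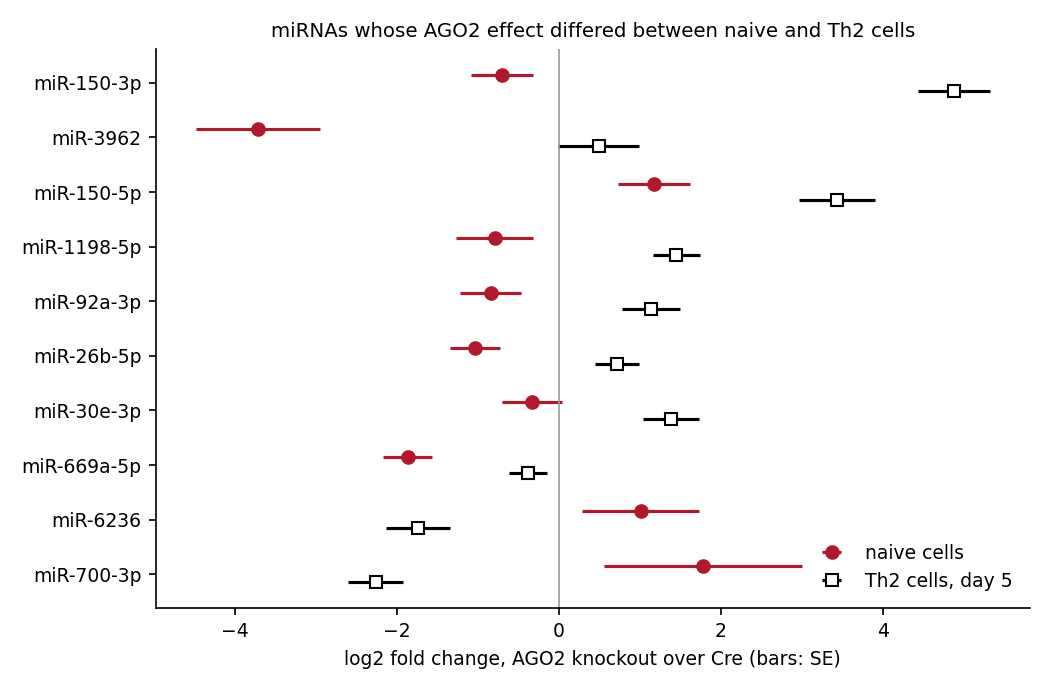
AGO2 effect in naive cells (red circles) and in Th2 cells after 5 days (open squares) as log2 fold change of AGO2 knockout over Cre with SE, for miRNAs whose effects differed. miR-351-5p and miR-669p-5p are not drawn; miR-150-3p has an effect of -0.70 in naive and 4.88 in Th2 cells.

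miR-3963, miR-181a-5p and miR-148b-3p did not differ between the stages by this test. miR-3963 was higher in Th2 AGO2 knockout cells by 2.07 (SE 0.43, edgeR adjusted p = 0.000594), with a difference of 1.05 between stages (SE 0.75, edgeR adjusted p = 0.354). miR-181a-5p was higher in Th2 AGO2 knockout cells by 1.42 and miR-148b-3p lower, at -1.05, with edgeR adjusted p = 0.0223 and 0.029. These 3 were called in the same direction at both stages, while miR-26b-5p was called in opposite directions. Of all 98 tested, 19.4% were called higher and 25.5% lower in Th2 cells. Both stages were fitted together, and the labels do not say whether same-letter libraries share an animal. The shared direction is therefore a description only. let-7g-5p had a log2 fold change of -0.00421 in Th2 cells, and its difference of -1.004 between stages did not pass the test (SE 0.44, edgeR adjusted p = 0.122).

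The AGO2 effect was also set against the loss of AGO1, AGO3 and AGO4 in naive cells, each taken against its own controls. The difference passed the test for 8 of 376 miRNAs, or 2.13%, with 5 more positive (1.33%) and 3 more negative (0.798%) for AGO2. Of the 376, 104 had no count in the 7 naive AGO2 and Cre libraries and 182 had a count in both groups, so for the other miRNAs the AGO2 effect has no count in at least 1 group. Among those 182, 7 were called, or 3.85%. The AGO1/3/4 effect itself was called for 6.91% of all 376, 1.06% higher and 5.85% lower. miR-3963 differed by 2.95 (SE 0.53, edgeR adjusted p = 0.000168), with an AGO1/3/4 effect of 0.67 that was itself called. miR-669a-5p differed by -1.71 (SE 0.34, edgeR adjusted p = 0.000717), with an AGO1/3/4 effect of 0.36 that was not called. miR-3962 differed by -2.85 (SE 0.65, edgeR adjusted p = 0.00343).

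The passenger arms of miR-181a stood among the positive differences. miR-181a-2-3p differed by 2.76 (SE 0.45, edgeR adjusted p = 5.1e-05), and its AGO1/3/4 effect of -0.91 was itself called (edgeR adjusted p = 0.000759). miR-181a-1-3p, with 22 counts in AGO2 knockout and 2 in Cre libraries, differed by 3.41 (SE 0.83, edgeR adjusted p = 0.00812). Its AGO1/3/4 effect of -1.11 was also called (edgeR adjusted p = 9.9e-06). miR-182-5p, which is induced on activation, had 102, 166, 89 and 60 counts in AGO2 knockout libraries and 47, 8 and 6 in Cre libraries. It differed by 2.23 (SE 0.47, edgeR adjusted p = 0.00138). Its AGO2 effect of 1.34 was not called (edgeR adjusted p = 0.109), with overlapping groups, and nor was its AGO1/3/4 effect of -0.36. Without Cre A, 20 differences were called, and without knockout F 16. miR-181a-2-3p, miR-3963 and miR-669a-5p stayed called in all 9 alternatives. The calls of miR-182-5p and miR-181a-1-3p were lost with library sizes alone, that of miR-181a-1-3p also without Cre A, and that of miR-3962 without Cre C. The remaining positive difference was of miR-351-5p, on 10 counts in AGO2 knockout libraries and 0 in Cre libraries, and stayed called in 4 of 9.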

How the data were processed

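The deposited files hold whole-number counts per mature miRNA entry, which the authors gave per the file headers. The submitters' processing notes name GRCm38 as the build. The sources used here do not name an aligner or counter, and do not say whether strand or molecular identifiers were used. Per the labels reads are single-end, while the series text says paired-end.

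Of 2119 entries, 9 named STD, which took 63.2% to 86.7% of the counts of the 7 libraries, were left out. For each of 1966 mature names the entry with the highest total was kept. Counts of the 14 libraries of the AGO2 experiment, naive and Th2, were fitted together with edgeR 4.0.16 in R 4.3.3 (TMM, filterByExpr at a minimum of 10 counts, quasi-likelihood test, Benjamini-Hochberg adjustment over all miRNAs tested), since the Cre libraries are few. Calls have an adjusted p under 0.05. The comparison with AGO1/3/4 loss was fitted on all 36 libraries. The procedure was also run on simulated counts with the depths of the 14 libraries and the same spread for each miRNA and library. That simulation did not model the differences among the real Cre libraries, so it does not bear on calls that depend on them. DESeq2 1.42.0 was an alternative. Single values per library were tested by two-sided exact permutation (scipy 1.17.1). Limits for a count of 0 use 3 counts, and these limits and the exact 95% binomial intervals cover counting error only. Replicates of a group differed by more than sampling noise.

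The text names the called miRNAs with at least 20 naive counts, the 15 most abundant, the core T cell list, the 4 members of each list with the most counts, and for each difference of effects the 4 called each way with the lowest p; others were named after their values were seen. The libraries and the lists were chosen with earlier results of these data known.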

Additional observations from a re-analysis of the deposited data

Results flagged for a closer look

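Over 50 sets of 4 naive AGO2 knockout libraries, 3 had a library that stood far from the other knockout libraries, where chance gives about 1 set in 20. miR-150-3p was low in knockout E, at 3953 CPM after TMM scaling, against 8244 to 8572 CPM in knockout D, F and G. miR-27a-3p was low in knockout G, at 495 CPM, on 3 counts. The log2 ratio of miRNA to STD counts was low in knockout F, at -1.93.

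The AGO2 effect differed between naive and Th2 cells, by the edgeR interaction test, for 12 miRNAs. The differences, naive minus Th2 on the log2 scale, were -5.58 for miR-150-3p, -4.21 for miR-3962, -2.26 for miR-150-5p, -2.25 for miR-1198-5p, -1.98 for miR-92a-3p, -1.76 for miR-26b-5p, -1.72 for miR-30e-3p and -1.48 for both miR-669a-5p and miR-669p-5p. In the other direction they were 2.75 for miR-6236, 4.04 for miR-700-3p and 7.60 for miR-351-5p. The naive Cre libraries had 0 counts of miR-351-5p and 1 count of miR-700-3p, so the sizes of these last values depend on the fit and are no bound.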

How the results depend on the processing

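The number of miRNAs called in naive AGO2 knockout cells, 9, moved to 14 with library sizes alone as the scaling, to 5 with scaling to the STD entries, to 31 of 122 with all locus entries (15 higher and 16 lower) and to 0 without Cre B and C. It lay between 4 and 18 when 1 library was left out. It lay within 1.5 times of 9 with DESeq2 size factors, with TMMwsp, with naive libraries fitted alone (6 of 49), with DESeq2 (12 of 620), without a filter (13), with 10 counts in 3 naive libraries and without miR-5099 (12). The share of higher calls was 7 of 12 with DESeq2 and 7 of 13 without a filter, against 2 of 9 with TMM and the filter. The causes were not tested.

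The differences between naive and Th2 effects, 12, numbered 2 to 18 with 1 library left out. With library sizes alone 13 were called, and without a filter 12, of which 9 were higher and 3 lower. Letters A to C are Cre and D to G are AGO2 knockout, so no paired comparison of naive AGO2 knockout with Cre was possible. With the letter as a replicate block across naive and Th2 libraries, 3 differences were called, 0 higher and 3 lower, all among the 12: miR-150-3p, miR-3962 and miR-1198-5p. Same-letter naive and Th2 libraries did not deviate together, with correlations of -0.164 to 0.0782. The differences from AGO1/3/4 loss, 8, moved to 14 with library sizes alone (2 higher and 12 lower) and lay between 7 and 20 with 1 library left out.

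With 1 library left out, the difference in miR-5099 share lay between 19.8 and 36.8 percentage points, in log2 miRNA per STD count between 0.23 and 1.31, and in log2 arm ratio between -1.80 and -0.75. Across single miRNAs and alternatives, 810 values kept their direction and call, 91 lost a call, 39 gained one and 67 changed sign without a call in either fit. No called miRNA changed sign. Depth limits the naive comparison through Cre B, with 596 miRNA counts, and Cre C, with 2156.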

Other observations

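miR-142a varied among the libraries of each group in the level of its 3p arm and in the share of its arms. miR-142a-3p had 5.63% and 9.04% of counts without miR-5099 in AGO2 knockout D and G, 1.74% and 1.53% in knockout E and F, and 2.80%, 0.222% and 0.0569% in Cre A, B and C. miR-142a-5p took 32.7%, 38.7%, 38.1% and 25.2% of the reads of both arms in AGO2 knockout libraries and 27.7%, 87.5% and 94.7% in Cre libraries, where Cre B and C rest on 8 and 19 counts.

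miR-26a-5p took 20.7% of counts without miR-5099 on average in AGO2 knockout libraries and 23.7% in Cre libraries, against 5.11% in naive WT libraries of the other experiment. miR-92a-3p took 1.47% in AGO2 knockout libraries and 2.59% in Cre libraries, against 0.129% in naive WT libraries. The WT libraries are also labelled with no Cre, while both other groups carried it. The experiment, depth and genotype cannot be told apart in these values.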
